A study of Penicillium oxalicum with 12 samples.

Results

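The transcripts of 4 septin genes of the filamentous fungus *Penicillium oxalicum* were followed across 12 RNA libraries. The genes were chosen by locus tag and are 4 of the 9909 genes with a value in any library. PDE_09818 is *aspA*, PDE_09187 is *aspB*, PDE_09456 is *aspC*, and PDE_06826 is called by its tag. WT (strain 114-2) and Δ*Podot1*, a strain made from it in which a hygromycin resistance marker replaced the coding region of *Podot1*, were each grown on both carbon sources, and each of the 4 groups had 3 biological replicates. *Podot1* encodes a methyltransferase for a lysine of histone H3. All mycelia were first grown in 2% glucose at 30°C and were then moved for 24 h to fresh medium. This held either 2% glucose or 1% microcrystalline cellulose with 1% wheat bran, and the latter is called cellulose medium here. The deletion was represented by a single strain. The comparisons ask whether septin transcript levels differ between the strains in either medium, and between the media in either strain.

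Septins are GTP-binding proteins that join into rods, and the rods join end to end into filaments on the inner face of the plasma membrane. In *Saccharomyces cerevisiae*, Cdc10 lies at the centre of the rod, Cdc3 and Cdc12 lie on either side of it, and Cdc11 closes the ends, so the rod holds its subunits in a fixed proportion. Work in the related mould *Aspergillus nidulans* has placed septins where new cross-walls (septa) and side branches of hyphae form. *aspA* is the counterpart of CDC11, *aspB* of CDC3 and *aspC* of CDC12. PDE_06826 is annotated as a septin whose nearest match is Spn2 of fission yeast, and the sources used here pair its tag with no gene name. A further septin gene of this fungus was not analysed here. The 4 genes were found through the study's table of genes changed in glucose, so their difference between the strains in that medium is not independent evidence of its direction. No sequence or position of these genes was analysed here.

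The total count per library was between 4607760 and 7081691, and each septin gene had between 318 and 2685 reads in each library. Counting error alone was therefore 1.93% to 5.61% of a value, and the SD between replicates of a group was 4.75% to 46.3% of the mean. Levels are given as FPKM (fragments per kilobase of transcript, scaled to the number of mapped reads). Comparisons between genes, as in their order and shares, take this scaling by length as given. The labels describe a tag-based protocol and the paper RNA-seq, and whether the scaling holds was not tested. The strain labels were checked on *Podot1*, which was at 25.8 to 36.4 FPKM in the 6 WT libraries and at 0 to 0.19 FPKM in the 3 Δ*Podot1* libraries in glucose. In cellulose the libraries labelled as the deletion strain did not match this: replicate 1 had 33.4 FPKM and replicate 2 had 58.4 FPKM, and only replicate 3 listed none. The cellobiohydrolase gene *cel7A*, which marks growth on cellulose, was at 57.7 FPKM in replicate 2, against 3424 and 7219 FPKM in replicates 1 and 3 and at least 7681 FPKM in WT. It was at most 44.7 FPKM in glucose. These 3 are called deletion-labelled libraries below. The edgeR fits that rest on them, the actin ratio and the correlations of levels are also given without replicates 1 and 2. The exact permutation tests, shares and overlaps in cellulose are not given without both. The correlations of deviations from group means are also given without the whole group.

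In WT in glucose all septin genes were expressed at a similar order of magnitude. *aspB* was the highest on average, at 148 ± 7.02 FPKM (SD, n = 3), followed by PDE_06826 at 139 ± 36.6, *aspC* at 110 ± 13.3 and *aspA* at 91.8 ± 10.8 FPKM. The gaps from PDE_06826 to *aspB* and to *aspC* were smaller than the SD of PDE_06826, so its place relative to them is not settled. The values of *aspB*, at least 142 FPKM, lay above those of *aspC*, at most 124 FPKM. The ranges of *aspC* and *aspA* overlapped, although *aspC* was above *aspA* in 11 of the 12 libraries of the series. Across all 12 libraries *aspB* was the highest of the 4 in 10 libraries, and *aspA* was the lowest in 9. PDE_06826 took the lowest place in WT replicates 2 and 3 in cellulose, and *aspC* took it in deletion-labelled replicate 1 in cellulose.

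**Figure D1:**
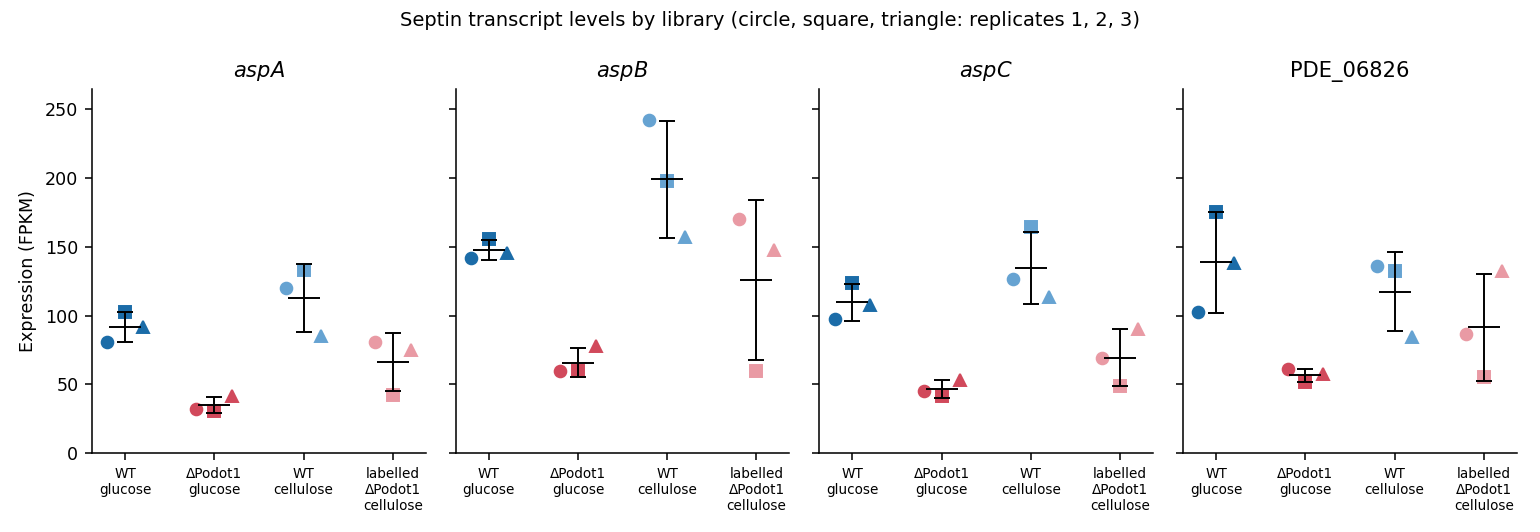
Expression of each septin gene (FPKM, vertical axis) in each library, by strain and medium. Symbols are replicates 1 to 3 and black bars are the mean ± SD of 3 libraries; in glucose the 3 Δ*Podot1* libraries of each gene sit below the 3 WT libraries, and in cellulose deletion-labelled replicate 2 (square) sits near the Δ*Podot1* glucose values.

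All 4 septin transcripts were lower in Δ*Podot1* than in WT in glucose, with 3 of them past the test, and the strains did not overlap for any of the 4. Of all genes tested, 8.84% were called in this contrast, and the FPKM values of 41.6% did not overlap between the strains, with 19.0% lower in Δ*Podot1*. *aspA*, the CDC11 counterpart, had 81.1, 103 and 91.7 FPKM in WT replicates 1, 2 and 3, and 32.2, 30.7 and 41.7 FPKM in Δ*Podot1*. Both ranges were narrow compared with the gap between them. *aspB*, the CDC3 counterpart, had 142, 155 and 146 FPKM in WT and 59.3, 59.5 and 77.7 FPKM in Δ*Podot1*. Of the 4 septin genes in the 4 groups, these WT libraries were the closest together, with an SD of 4.75% of the mean. *aspC*, the CDC12 counterpart, had 97.2, 124 and 108 FPKM in WT and 45.1, 41.1 and 53.4 FPKM in Δ*Podot1*. PDE_06826 had 102, 176 and 138 FPKM in WT and 60.9, 51.5 and 57.7 FPKM in Δ*Podot1*, so that here WT was the variable strain and Δ*Podot1* the tight one.

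A gene was called when edgeR's quasi-likelihood test gave a Benjamini-Hochberg adjusted p under 0.05 over the 9088 genes tested, with a change of at least 2-fold. Under this rule *aspA* (log2 fold change -1.48, SE 0.322), *aspC* (-1.32, SE 0.302) and PDE_06826 (-1.39, SE 0.375) were called lower in Δ*Podot1*, with adjusted p of 0.0168, 0.0206 and 0.0405. *aspB* (-1.25) was past the fold but not the adjusted p, which was 0.0714 (edgeR). Of all genes tested 4.01% were called lower, beside the 8.84% called in either direction, and the median log2 fold change was -0.03, against -1.35 over the 4 septin genes. Since the rule for choosing the genes goes back to a table of this contrast, nothing is read from that difference. On the FPKM values, the exact permutation test (two-sided) gave p = 0.1 for each gene, the smallest p that 3 against 3 libraries allow. In RNA from whole mycelium, fewer cells that express a gene and less of its RNA per cell cannot be told apart.

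The calls in glucose rested on few libraries, while the size of the difference did not. None of the 4 was called without WT replicate 2, WT replicate 3, Δ*Podot1* replicate 1 or Δ*Podot1* replicate 2 in glucose, although all 4 had an unadjusted p under 0.05 in each of these edgeR fits. Over all genes, 3.17% to 3.72% were called in these 4 fits, and 1558 to 1792 of the 9088 had an unadjusted p under 0.05. The log2 fold changes without any single library stayed between -1.67 and -1.16. All 4 were called by DESeq2, in the fit of the 6 glucose libraries alone and in the fit without deletion-labelled replicate 2 in cellulose, beside 13.6%, 17.9% and 15.4% of all genes. In the last of these the standard error of *aspB* fell from 0.395 to 0.260, its log2 fold change stayed at -1.25 and its adjusted p was 0.00616 (edgeR).

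In cellulose the septin values fell into a different arrangement. WT had 120, 133 and 84.9 FPKM of *aspA* in replicates 1, 2 and 3, and the deletion-labelled libraries had 81.1, 42.0 and 74.9 FPKM. For *aspB* these were 242, 198 and 157 FPKM in WT and 170, 59.9 and 148 FPKM in the deletion-labelled libraries. For *aspC* they were 126, 164 and 114 against 69.2, 48.5 and 89.9 FPKM, and for PDE_06826 they were 136, 132 and 84.0 against 86.4, 55.2 and 133 FPKM. The groups did not overlap for *aspA* and *aspC*, and they overlapped for *aspB* and PDE_06826, while 38.0% of all genes tested did not overlap and 25.2% were called. Within each group 1 library was low in every gene, replicate 3 in WT and replicate 2 among those labelled Δ*Podot1*.

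Of the 4 genes, *aspC* was called lower in the deletion-labelled libraries, with a log2 fold change of -1.02 (SE 0.300, adjusted p = 0.0271, edgeR). Over all genes 10.8% were called lower, beside the 25.2% called in either direction, and 1 of 4 is read against that background. *aspA* had a log2 fold change of -0.84 (SE 0.317), *aspB* of -0.72 (SE 0.391) and PDE_06826 of -0.42 (SE 0.369), with adjusted p of 0.0663, 0.179 and 0.407 (edgeR). The exact permutation p on FPKM was 0.1 for *aspA* and *aspC*, 0.2 for *aspB* and 0.5 for PDE_06826. The call of *aspC* was lost without WT replicate 1 or 2 or without deletion-labelled replicate 1 or 2, and its log2 fold change was then between -1.05 and -0.80. Without both libraries that hold *Podot1* reads, the log2 fold changes (edgeR) were -0.60 for *aspA* (SE 0.365) and -0.44 for *aspB* (SE 0.374). They were -0.60 for *aspC* (SE 0.342) and 0.16 for PDE_06826 (SE 0.392). The remaining arm is then 1 library, which is taken to vary like the other groups, so only effect sizes are given here.

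Library by library, the septin level and *Podot1* did not go the same way in cellulose as they did in glucose. Deletion-labelled replicate 2 had the most *Podot1* reads of all 12 libraries, and its septin levels were those of Δ*Podot1* in glucose. *aspB*, *aspC* and PDE_06826 lay inside the Δ*Podot1* glucose range there, and *aspA* was just above it, at 42.0 FPKM against a highest value of 41.7 FPKM. Its *cel7A* level, given above, was also near that of glucose cultures. Replicate 3, the library with no listed *Podot1* read, had septin levels 1.93 times (*aspC*) to 2.34 times (PDE_06826) the Δ*Podot1* glucose mean. Against WT in cellulose, replicate 3 lay below the lowest WT library for *aspA*, *aspB* and *aspC* and inside the WT range for PDE_06826. Replicate 1, with WT-like *Podot1*, lay inside the WT cellulose range for *aspB* and PDE_06826 and below it for *aspA* and *aspC*. The cause of the *Podot1* reads in these libraries was not tested.

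**Figure D2:**
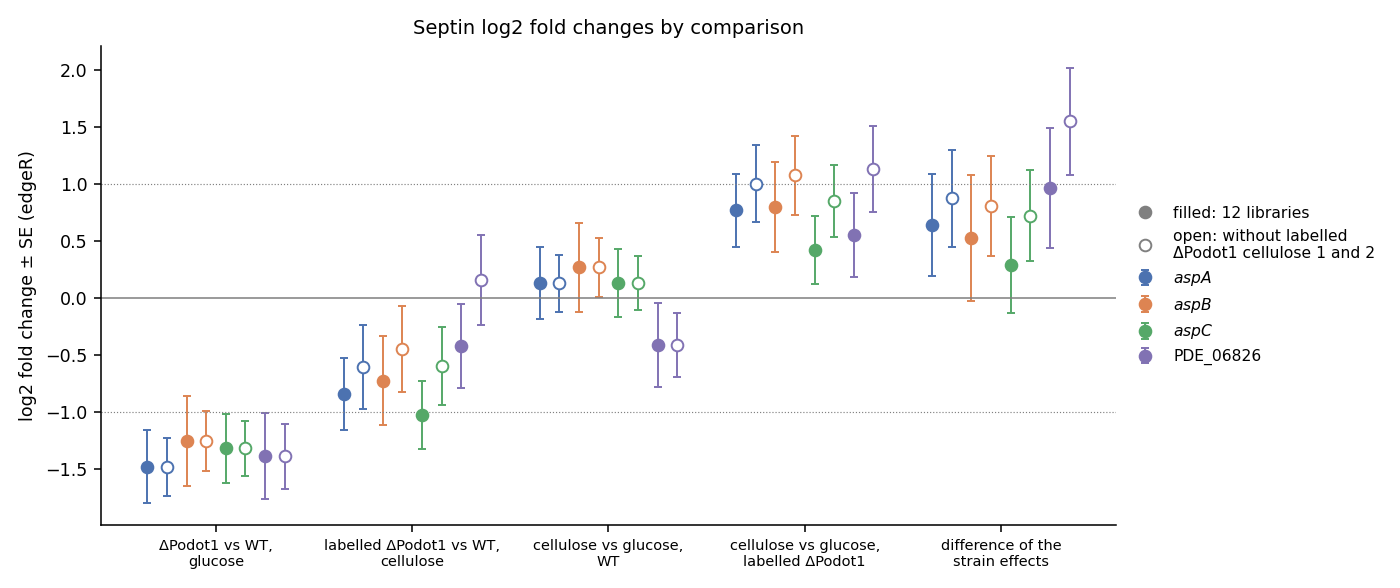
Log2 fold change with its standard error (edgeR, vertical axis) of each septin gene in 5 comparisons, from 12 libraries (filled) and without deletion-labelled replicates 1 and 2 in cellulose (open). Dotted lines mark a 2-fold change; the glucose values stay between -1.48 and -1.25 in both fits, while the cellulose values move towards 0, to between -0.60 and 0.16.

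In WT, where all 6 libraries held *Podot1* reads as labelled, no septin transcript passed the test between the media. From glucose to cellulose the log2 fold change was 0.13 for *aspA* (SE 0.315), 0.27 for *aspB* (SE 0.390), 0.13 for *aspC* (SE 0.297) and -0.41 for PDE_06826 (SE 0.368). None of the 4 was called by edgeR or DESeq2, and none had an unadjusted p under 0.05 in either tool. Between the media 35.1% of all genes were called in edgeR, and 4420 of the 9088 had an unadjusted p under 0.05. On FPKM the groups overlapped for *aspA*, *aspC* and PDE_06826, while 57.9% of all genes tested did not overlap, with 33.2% higher in cellulose. For *aspB* all 3 cellulose libraries lay above the 3 glucose libraries, the lowest at 157 and the highest glucose library at 155 FPKM, with 199 ± 42.7 against 148 ± 7.02 FPKM (SD, n = 3 each, exact permutation p = 0.1). With standard errors of 0.297 to 0.390, these values do not show that the levels were the same.

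Under the deletion label all 4 genes were higher in cellulose than in Δ*Podot1* in glucose, but none passed the test. The log2 fold change was 0.77 for *aspA* (SE 0.318), 0.80 for *aspB* (SE 0.392), 0.42 for *aspC* (SE 0.298) and 0.55 for PDE_06826 (SE 0.370), and the background was 17.3% of all genes called. In edgeR 1 of the 4, *aspA*, had an unadjusted p under 0.05, as did 3046 of the 9088 genes tested, and DESeq2 called none. The result turned on deletion-labelled replicate 2. Without it *aspA* (log2 fold change 1.03, adjusted p = 0.0100, edgeR) and *aspB* (1.15, adjusted p = 0.00654, edgeR) were called higher, beside 20.5% of all genes called higher. Without replicates 1 and 2, *aspA* (1.00), *aspB* (1.07) and PDE_06826 (1.13) were called higher, with adjusted p of 0.0413, 0.0343 and 0.0387 (edgeR), beside 17.1% of all genes. *aspC* had 0.85 in that fit, with an adjusted p of 0.0621 (edgeR).

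The comparisons share groups, so the difference between the strain effects was tested itself. Cellulose minus glucose, the strain effect on the log2 scale was higher by 0.64 (SE 0.447) for *aspA*, 0.53 (SE 0.551) for *aspB*, 0.29 (SE 0.421) for *aspC* and 0.96 (SE 0.522) for PDE_06826. No septin gene was called, none had an unadjusted p under 0.05 in edgeR and DESeq2 called none. Over all genes 1.68% were called, and 1981 of the 9088 had an unadjusted p under 0.05 (edgeR). In edgeR, 3 of the 4 had an unadjusted p under 0.05 without deletion-labelled replicate 2, but none was called. In that fit 8.13% of all genes were called, and 2445 of the 9088 had an unadjusted p under 0.05. Without replicates 1 and 2, PDE_06826 had the largest difference of the 4, 1.55 (SE 0.470, edgeR), which rests on 1 deletion-labelled cellulose library. A smaller strain effect in cellulose than in glucose is therefore not shown for any of these genes.

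The make-up of the septin pool was described as the share of each gene in the summed FPKM of the 4. This sum was 488 ± 67.5 FPKM in WT and 204 ± 24.4 FPKM in Δ*Podot1* in glucose, and 564 ± 107 FPKM in WT and 353 ± 129 FPKM in the deletion-labelled libraries in cellulose (SD, n = 3 each). The last group held 407, 206 and 445 FPKM in replicates 1, 2 and 3. In glucose, where the sum was 2.39 times higher in WT, the mean shares differed by at most 1.79 percentage points between the strains. *aspC* took 22.5% ± 0.437 in WT and 22.8% ± 0.338 in Δ*Podot1*, and PDE_06826 took 28.1% ± 3.66 and 28.0% ± 2.90. *aspB* took 30.5% ± 2.86 and 32.1% ± 1.87. *aspA* took 19.2%, 18.4% and 19.0% in WT replicates 1, 2 and 3 and 16.3%, 16.8% and 18.1% in Δ*Podot1*. Only for *aspA* did the groups not overlap, with a difference of -1.79 percentage points (exact permutation p = 0.1, among 16 such tests).

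Between media in WT the share of PDE_06826 differed most. It was 24.2%, 31.5% and 28.6% of the pool in glucose and 21.7%, 21.1% and 19.1% in cellulose, and the groups did not overlap. The mean difference was -7.45 percentage points (exact permutation p = 0.1), and without any single library it was between -9.39 and -5.75 points. The share of *aspB* was 4.80 points higher and that of *aspC* 1.61 points higher in cellulose, with overlapping groups, and that of *aspA* was 1.05 points higher without overlap. In the deletion-labelled libraries PDE_06826 took 21.2%, 26.9% and 29.8%. Replicate 1 of these had the largest share of *aspB* of all libraries, 41.8%, and the smallest share of *aspC*, 17.0%. With 3 against 3 libraries no exact test of a share can go below p = 0.1, so none of the 16 could pass.

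**Figure D3:**
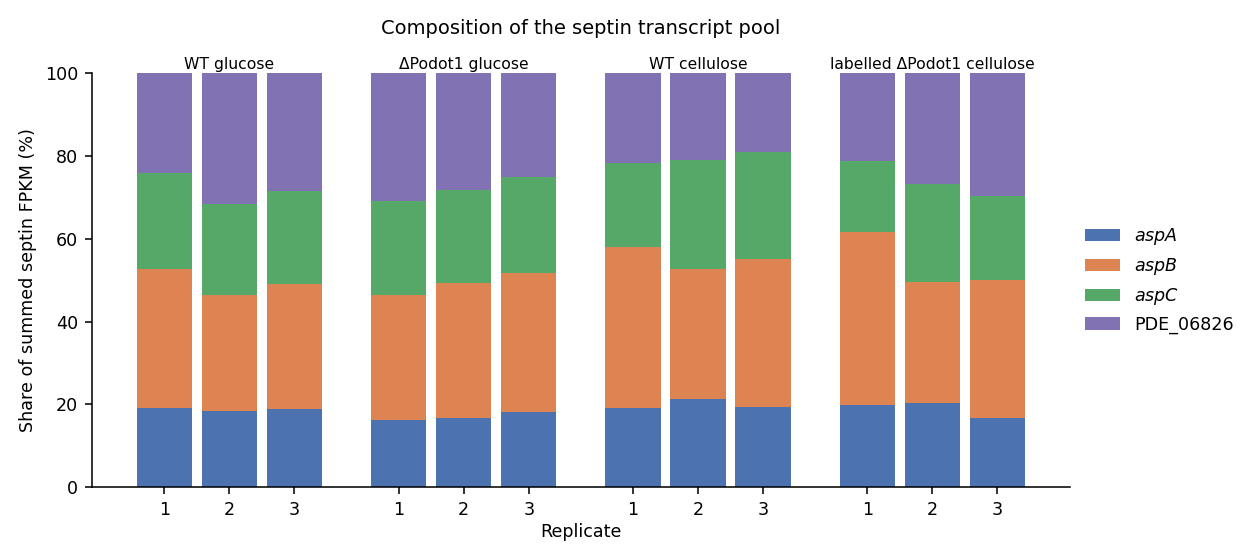
Share of each septin gene in the summed FPKM of the 4 genes (%, vertical axis) in each of the 12 libraries, by group and replicate. In glucose the mean shares of the strains differ by at most 1.79 percentage points although the sum differs 2.39-fold, and PDE_06826 takes 19.1% to 21.7% in WT in cellulose against 24.2% to 31.5% in WT in glucose.

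Actin (PDE_01092), the subunit of actin filaments and a common reference gene, did not follow the septins. It had 423, 793 and 826 FPKM in WT and 761, 722 and 829 FPKM in Δ*Podot1* in glucose, with overlap. The ratio of summed septin to actin was 0.762 ± 0.214 in WT and 0.264 ± 0.0129 in Δ*Podot1* (SD, n = 3 each), a difference of -1.50 on the log2 scale without overlap (exact permutation p = 0.1). In cellulose it was 1.72 ± 0.134 in WT and 0.594 ± 0.294 in the deletion-labelled libraries, a difference of -1.68 on the log2 scale. Replicates 1, 2 and 3 of the latter had 0.640, 0.279 and 0.862, all below the lowest WT ratio of 1.58. With replicate 3 alone the difference was -0.99 on the log2 scale. The reference differed too. Actin was at 362, 340 and 279 FPKM in WT in cellulose, called lower than in glucose (log2 fold change -1.24, adjusted p = 0.0288, edgeR). In the deletion-labelled libraries actin was at 635, 736 and 516 FPKM, and it was not called between the labels in cellulose (log2 fold change 0.86, adjusted p = 0.120, edgeR). A list of 8 household genes holds actin and enzymes of energy metabolism such as GAPDH (PDE_09952). In WT 7 of the 8 were called lower in cellulose than in glucose (edgeR), beside 15.9% of all genes. Between the strains in glucose none of the 8 was called by edgeR or DESeq2, and none had an unadjusted p under 0.05 in edgeR. Over all genes edgeR called 8.84% there and DESeq2 13.6%, so none called among 8 does not show that these genes were stable. The list's median log2 fold change between the strains in glucose was -0.11. Between the strain labels in cellulose 3 of the 8 were called higher under the deletion label, with a median of 1.27, and 6 had an unadjusted p under 0.05 (edgeR). Of all 9088 genes, 1304 were called higher there and 3868 had an unadjusted p under 0.05 (edgeR). DESeq2 called 4 of the 8, beside 29.6% of all genes. Without deletion-labelled replicates 1 and 2, which leaves 1 library under that label, the list's median was 0.91 (edgeR). Of the 8 reference genes, 7 were thus called between the media in WT and, with all 12 libraries, 3 between the labels in cellulose. Actin was among the former and not among the latter, and the ratios to actin in cellulose hold its differences in level.

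Other genes of the cytoskeleton and cell wall were read from a list of 8 genes that the study's tables annotate. Since 7 of them were found there among genes changed in either medium, the list is no independent evidence. In glucose 1 was called higher and 1 lower in Δ*Podot1*, beside 8.84% of all genes called in either direction and 4.01% called lower. PDE_05177, an ARF6-type GTPase of membrane traffic, was lower, at 76.4 ± 2.81 FPKM in WT and 31.8 ± 2.38 FPKM in Δ*Podot1* (log2 fold change -1.34, adjusted p = 0.0152, edgeR). Tropomyosin (PDE_00855), which coats actin filaments, had a log2 fold change of -0.54 in glucose, and a subunit of the Arp2/3 complex (PDE_02509), which starts branched actin filaments, had 0.59. The median of the list was 0.90 in glucose, opposite in sign to that of the septins. In cellulose 3 of the 8 were called higher and 1 lower under the deletion label, and the gene called lower was tropomyosin (-1.74, adjusted p = 0.00377, edgeR). Over all genes 25.2% were called there in either direction and 10.8% lower, and nothing is read from the counts of so short a list. Without deletion-labelled replicates 1 and 2, which leaves 1 library under that label, the log2 fold change of tropomyosin was -1.40 (edgeR). Tropomyosin had 777, 782 and 922 FPKM in WT and 218, 248 and 315 FPKM in the deletion-labelled libraries, so replicate 2 did not stand apart from the others in this gene as it did in the septins.

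Over all 12 libraries the levels of the septin genes were correlated. Over 12 libraries Pearson's r of log2(FPKM + 1) was 0.967 between *aspA* and *aspB*, 0.967 between *aspA* and *aspC* and 0.912 between *aspB* and *aspC* (Spearman's rho 0.881, 0.965 and 0.853). PDE_06826 had r of 0.891, 0.849 and 0.890 with *aspA*, *aspB* and *aspC* (rho 0.790, 0.629 and 0.783). These values describe 12 libraries that share strains, media and scaling, and they reflect in good part a gap in level. The lower level in Δ*Podot1* in glucose, a part of that gap, is what the genes were found through. The r over 12 libraries and the ranks taken from it are therefore no independent evidence that the septin genes move together. The summed level was 183 to 231 FPKM in the 3 Δ*Podot1* libraries in glucose and in deletion-labelled replicate 2 in cellulose, and 407 to 627 FPKM in the other 8.

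Ranked by r among the 9273 other genes whose mean was 1 FPKM or more, *aspC* was the first and *aspB* the second for *aspA*. For both *aspB* and *aspC* the first gene was *aspA*. PDE_06826 was ranked 49 for *aspA*, 143 for *aspB* and 47 for *aspC*. When each value was taken as its deviation from the group mean, r was still 0.915 between *aspA* and *aspB*, 0.876 between *aspA* and *aspC* and 0.877 between *aspC* and PDE_06826, and the lowest of the 6 pairs had 0.725. Other genes lay closer in several of these pairs: *aspC* was ranked 675 for *aspB* and PDE_06826 was ranked 700 for it. The deletion-labelled cellulose group enters these deviations with 206 FPKM in 1 library and 407 and 445 FPKM in the others. Without that group r of the deviations was 0.532 to 0.908, with a mean over the 6 pairs of 0.739, against 0.822 with it. Within the 6 WT libraries alone, r was 0.826 between *aspA* and *aspB*, 0.917 between *aspA* and *aspC* and 0.651 between *aspB* and *aspC*. PDE_06826 had r of 0.545, 0.222 and 0.366 with *aspA*, *aspB* and *aspC* there. In these libraries *aspB* was ranked 131 for *aspA*, and *aspC* was ranked 1588 for *aspB*. Every pair thus had a lower r in WT than across all libraries, and the lowest were those of PDE_06826. The share of PDE_06826 in the pool was lower in cellulose in WT, as given above. Without deletion-labelled replicate 2 the mean r over the 6 pairs was 0.902, against 0.912 with it, and without replicates 1 and 2 it was 0.927.

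**Figure D4:**
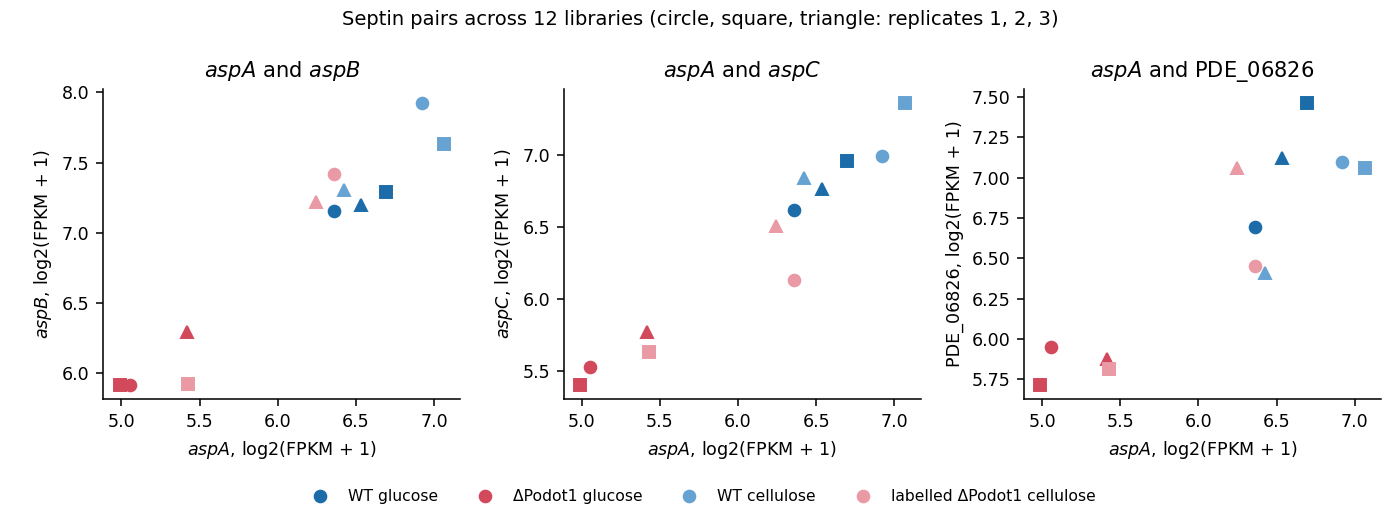
Log2(FPKM + 1) of *aspB*, *aspC* and PDE_06826 (vertical axes) against *aspA* (horizontal axes), with 1 point for each of 12 libraries. Points fall in a low cloud (Δ*Podot1* in glucose and deletion-labelled replicate 2 in cellulose) and a high one, with r of 0.967, 0.967 and 0.891.

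The 10 genes most like the mean septin pattern, among 7378 genes compared at a mean of 10 FPKM or more, had r of 0.924 to 0.952 over the 12 libraries. Likeness was Pearson's r with the mean log2(FPKM + 1) of the 4 septin genes. Without deletion-labelled replicates 1 and 2 the same 10 genes had r of 0.922 to 0.968. PDE_02659 (r = 0.952), PDE_00564 (0.950), PDE_09004 (0.940), PDE_04680 (0.939) and PDE_05177 (0.937) led them, and PDE_04671, PDE_07976, PDE_01690, PDE_02765 and PDE_03298 followed. PDE_05177 is the ARF6-type GTPase described above. PDE_04671 is annotated as an IQGAP-type protein, a family that in yeasts is found at the contractile ring, and it was at 33.3, 42.6 and 44.3 FPKM in WT and 10.8, 10.5 and 14.1 FPKM in Δ*Podot1* in glucose. PDE_01690, a putative chitin glucanosyltransferase of the cell wall, was the most abundant of the 10, at 903 ± 37.8 FPKM in WT and 175 ± 37.6 FPKM in Δ*Podot1* in glucose. In cellulose it had 593, 759 and 529 FPKM in WT and 356, 166 and 470 FPKM in the deletion-labelled libraries, with replicate 2 again the lowest. PDE_04680 showed the widest range in relative terms, from 2.21 FPKM in Δ*Podot1* in glucose to 44.7 FPKM in WT in cellulose. In all 10 genes the 3 Δ*Podot1* libraries in glucose lay below the 3 WT libraries, which the choice by likeness makes probable and which is no separate result.

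**Figure D5:**
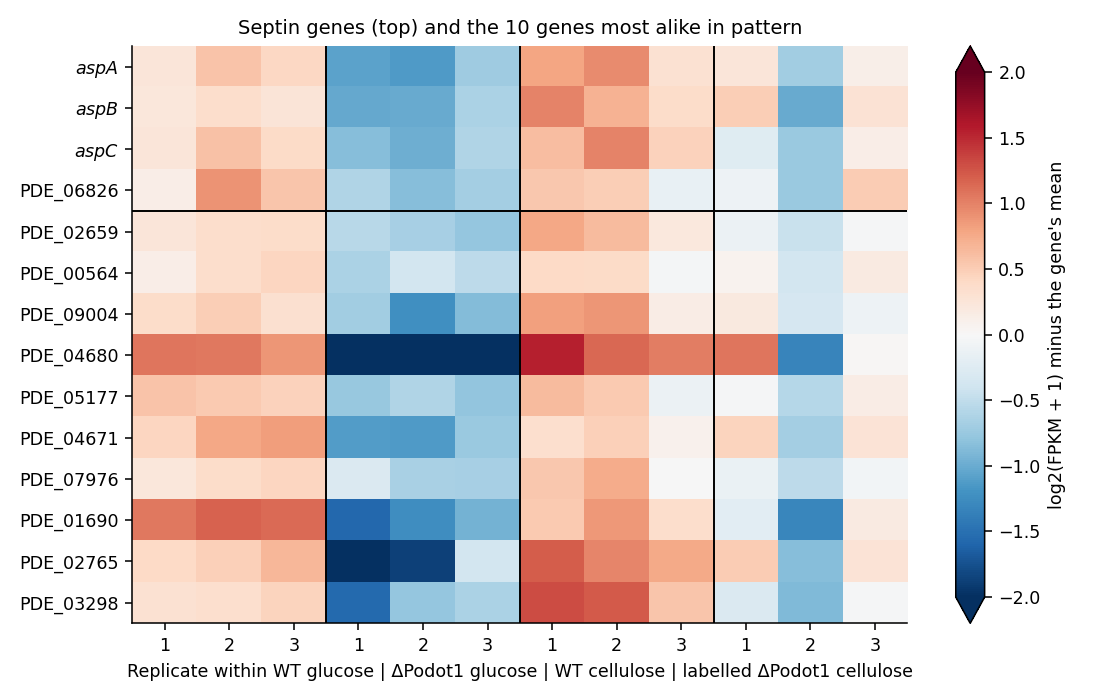
Log2(FPKM + 1) of each gene minus its mean over 12 libraries (colour) for the 4 septin genes and the 10 genes most alike, with libraries in columns by group and replicate. The Δ*Podot1* glucose columns and deletion-labelled replicate 2 in cellulose are below the gene's mean in all 14 rows, and the 3 WT glucose columns are above it in all 14.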

How the data were processed

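RNA-seq values of 12 libraries of *P. oxalicum* were used. The authors deposited, per gene and library, an estimated count without normalization, and FPKM values, normalized for gene length and mapped reads. The paper names HISAT and Bowtie2 for mapping, with versions not given in the sources used here; the labels describe a tag-based protocol instead, and 0.713% of the estimated counts were not whole. Genes not listed in a library were taken as 0. Estimated counts can be split between similar genes, so septin paralogs are uncertain to that extent.

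Counts were rounded and fitted with edgeR 4.0.16 under R 4.3.3 (filterByExpr, TMM, 1 mean per group over 12 libraries; 9088 genes tested). The edgeR standard errors are the absolute log2 fold change over the square root of F, and are rough. Where fewer libraries than 12 were fitted to leave out a library, the same 9088 genes were kept. Levels, shares and ratios had two-sided exact permutation tests. The alternatives tried were limma 3.58.1 with 1, 0.1 or 10 added to FPKM before the log2 step, limma on TPM, DESeq2 1.42.0, other scalings and filters, the groups compared alone, the adjusted p alone, a replicate block and each library left out. The fit without all 3 deletion-labelled cellulose libraries, and the correlations and actin ratio without replicates 1 and 2 or without that group, were chosen after seeing the data. Procedures were tested on simulated data.

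The genes named were drawn from the 4 septins, *Podot1* and *cel7A* (for the check of labels), the household and cytoskeleton lists and the 10 genes most alike. Listed genes that are not named enter the counts only. The members and lists were chosen with earlier results of these data known.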

Additional observations from a re-analysis of the deposited data

How the results depend on the processing

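The septin log2 fold changes kept their sign under every alternative in glucose, in the comparison of media under the deletion label and in the difference of the strain effects. The signs that turned were those of uncalled values near 0. PDE_06826 in cellulose had 0.16 without both deletion-labelled cellulose libraries that hold *Podot1* reads. Between media in WT, *aspA* had -0.0032 without WT replicate 1 in glucose and -0.0016 without WT replicate 2 in cellulose, and *aspC* had -0.031 without the latter. Their ranges without single libraries were -0.0032 to 0.31 and -0.031 to 0.25.

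The count of septin genes called in glucose was 3, and 0 to 4 without single libraries. It was 4 under DESeq2, 4 with only the groups compared and 2 with the replicate number as a block, where PDE_06826 had an adjusted p of 0.0730 (edgeR). That gene also lost its call under limma with 10 added to FPKM and on TPM (adjusted p = 0.0542 and 0.0547), and in edgeR without WT replicate 1 or 2 in cellulose (0.0525 and 0.0620) or without Δ*Podot1* replicate 3 in glucose (0.0822). The numbers were not taken to pair samples, since 2 of 18 same-numbered pairs had deviations correlated above 0.1 (range -0.178 to 0.175), and the block changed no other septin call. Over all genes it moved the calls from 803 to 619 in glucose and from 153 to 79 for the difference of the strain effects. The count in cellulose was 1, and 0 to 1 without single libraries. It was 0 with a mean FPKM of at least 10, under limma with each pseudocount and on TPM, with only the groups compared, and without both libraries that hold *Podot1* reads. Under the deletion label the count between media was 0, 0 to 2 without single libraries and 3 without both. The counts between media in WT and for the difference of the strain effects stayed at 0 under all alternatives.

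Over all genes the counts moved by more than 1.5 times: 288 to 1569 called in glucose, 537 to 2693 in cellulose, 2070 to 3724 between media in WT, 163 to 3171 under the deletion label and 26 to 859 for the difference of strain effects. In WT between media, limma on TPM put the median of all genes at 0.18 on the log2 scale, against 0.05 under TMM.

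Some differences in share reversed without single libraries, and no share test could pass in any comparison. In cellulose these were *aspA* (-1.54 to 0.28 points) and *aspB* (-4.17 to 2.18), and in glucose PDE_06826 (-2.04 to 1.59). Between media under the deletion label they were *aspB* (-0.94 to 5.41) and PDE_06826 (-3.94 to 0.33). The mean r over the 6 septin pairs was 0.739 for deviations from group means without the deletion-labelled cellulose libraries, an alternative added after the data had been seen. The causes of these shifts were not tested.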
